A study of Homo sapiens with 20 samples.

Results

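DHRS2, also known as HEP27, encodes a short-chain dehydrogenase/reductase, and was 1 of 18417 genes measured on 20 human gene arrays of LNCaP cells. The array carried 1 transcript cluster (a probe set that covers a whole gene) annotated to DHRS2 alone, so the brightest cluster was also the single one, and 0 clusters listed it beside other genes. The gene was selected on its measured levels in these same arrays and groups. Its levels and their differences are therefore a description, with no test.

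LNCaP is an established line from a human prostate cancer metastasis that grows in response to androgens. As the series title has it, the study asked which transcripts under dihydrotestosterone (DHT), a natural androgen, depend on the cell cycle. In the group CDT, cells were kept in CDT, an abbreviation the labels leave unexplained, for 72 h, with ethanol during the last 3 h (n = 3). In CDT + DHT the ethanol was replaced by 10 nM DHT (n = 3). The other 5 groups, grown in hormone-proficient medium and likewise given 10 nM DHT for 3 h before harvest, are named by the phase in which the labels place the arrest. Early G1 had PD-0332991, a CDK4/6 inhibitor, at 0.5 µM for 24 h (n = 3). Late G1 (n = 3) received 24 h of 5 µg/mL roscovitine, which inhibits CDK2 and related kinases. Early S (n = 2) received 24 h of 2 µg/mL aphidicolin, a DNA polymerase inhibitor. Late S (n = 3) received 24 h of 1 mM hydroxyurea, which blocks ribonucleotide reductase. G2/M (n = 3) received 15 h of 2 µg/mL aphidicolin, then a washout and 9 h of 50 ng/mL nocodazole, a microtubule poison. No group was arrested without DHT, so drug, medium and hormone cannot be told apart against CDT, nor drug and medium against CDT + DHT. Nothing in the labels tells separate cultures from repeat preparations, and the p-values cover no more than the variation among these arrays, which may be technical.

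As background, short-chain dehydrogenases/reductases form a large family of NAD(P)H-dependent enzymes that reduce or oxidise carbonyl and hydroxyl groups. DHRS2 reduces dicarbonyl compounds, has been found in mitochondria and the nucleus, and was first described in growth-arrested hepatoma cells. It has been reported to bind MDM2, the ubiquitin ligase of p53, and so to stabilise p53, to be switched on by the transcription factor MYB, and to rise when histone deacetylases are inhibited.

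The 250 bases before the start of DHRS2 are shown beside those of 3 genes whose levels resembled it most, since the letters they hold differ. Sequences and positions are from RefSeq (GRCh38.p14), 5′ to 3′ on the gene's strand, and capitals mark matches on either strand to TATAAA (the TATA box), CCAAT (a box bound by NF-Y and common in mitotic promoters) and TTTGAA or TTCGAA (the cell-cycle homology region of many G2/M genes). DHRS2 lies at chr14:23629865-23630114 (plus strand), PLK1 at chr16:23678639-23678888 (plus strand), CCNB1 at chr5:69166900-69167149 (plus strand) and BTG1 at chr12:92145847-92146096 (minus strand).
DHRS2: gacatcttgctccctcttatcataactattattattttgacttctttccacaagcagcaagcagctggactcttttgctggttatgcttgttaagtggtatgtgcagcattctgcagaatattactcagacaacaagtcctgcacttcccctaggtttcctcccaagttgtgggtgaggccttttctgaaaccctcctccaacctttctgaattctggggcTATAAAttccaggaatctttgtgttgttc
PLK1: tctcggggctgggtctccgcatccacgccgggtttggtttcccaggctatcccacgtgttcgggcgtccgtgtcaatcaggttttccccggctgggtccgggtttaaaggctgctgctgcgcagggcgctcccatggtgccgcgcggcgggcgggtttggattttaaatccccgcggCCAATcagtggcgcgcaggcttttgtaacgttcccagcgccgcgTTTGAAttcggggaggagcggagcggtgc
CCNB1: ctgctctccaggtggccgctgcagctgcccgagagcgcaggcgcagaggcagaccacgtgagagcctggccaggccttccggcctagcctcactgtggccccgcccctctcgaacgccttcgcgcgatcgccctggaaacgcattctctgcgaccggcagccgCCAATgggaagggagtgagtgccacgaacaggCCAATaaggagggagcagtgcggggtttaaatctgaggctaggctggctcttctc
BTG1: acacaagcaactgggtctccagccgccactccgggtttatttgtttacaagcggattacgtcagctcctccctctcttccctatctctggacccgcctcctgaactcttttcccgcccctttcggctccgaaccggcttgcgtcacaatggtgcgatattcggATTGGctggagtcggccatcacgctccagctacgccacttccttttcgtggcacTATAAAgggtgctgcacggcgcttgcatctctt
In DHRS2 the window held TATAAA once, from 29 to 24 bases before the start. It held no match to CCAAT, to the cell-cycle homology region or to AACNG, the core bound by MYB. PLK1 had TTTGAA from 29 to 24 bases and CCAAT from 73 to 69 bases before its start. CCNB1 had CCAAT in 2 places, and BTG1 had TATAAA and CCAAT once each. Over 27305 promoters with a window of this length, 11.1% held TATAAA, 33% CCAAT, 14.6% a cell-cycle homology region and 70.6% AACNG, each counted on both strands. A match is a string of letters and not a known site.

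Of 8 prostate luminal markers 4 were measured: KLK3, KLK2, KRT8 and KRT18 had medians of 9.25, 8.15, 6.11 and 6.14 as log2(intensity + 1) over the 20 arrays, and 10 markers of basal, stromal and white blood cells had medians of 1.64 to 4.0. Of these 10, COL1A1, KRT14 and COL1A2 had median percentiles of 63.3, 61.3 and 56.8, above the median gene, and the others lay below it. The mean of the luminal markers was 6.82 to 7.60 in G2/M and 5.97 to 8.36 elsewhere. That of the basal ones was 2.41 to 3.12 and 2.98 to 4.41, and that of the stromal ones 1.82 to 2.99 and 2.09 to 3.93. White blood cell markers had 2.81 to 3.39 and 1.65 to 3.54. The part of these cell types in the DHRS2 levels was not tested. Within groups, 49.9% of the variance of the brighter genes lay on 1 axis. The 4 arrays farthest to one side, late S replicate 1, CDT replicate 1, early G1 replicate 2 and CDT + DHT replicate 3, included 0 of the G2/M arrays. On the opposite side lay late S replicate 2 (score -0.775), CDT replicate 2 (-0.484) and early G1 replicate 1 (-0.472). Each was farther out than CDT + DHT replicate 3 (0.446) and was kept. Without the 4 arrays the log2 level of DHRS2 in G2/M was higher by 4.22 than in CDT, 3.15 than in CDT + DHT, 4.41 than in early G1 and 4.35 than in late S.

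DHRS2 was high in G2/M and low in every other group. In G2/M its intensity was 46.5, 45.8 and 41.7 (arbitrary linear units), or 5.51 ± 0.08 as log2(intensity + 1) (mean ± SD, n = 3). In the other 17 arrays it ran from 0.00325 to 4.95 with a median of 1.67, and 8 of them were below 1. The lowest G2/M array had 8.42 times the intensity of the highest of the rest, and the groups did not overlap. On the log2(intensity + 1) scale that gap was 2.84.

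Ranked among the 18417 genes of its own array, DHRS2 stood between the 83.5th and the 85.1st percentile in G2/M. It stood between the 0.73rd and the 32.3rd percentile elsewhere, below the median gene on all 17 arrays. Such ranks do not change with a scaling applied to a whole array.

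**Figure D1:**
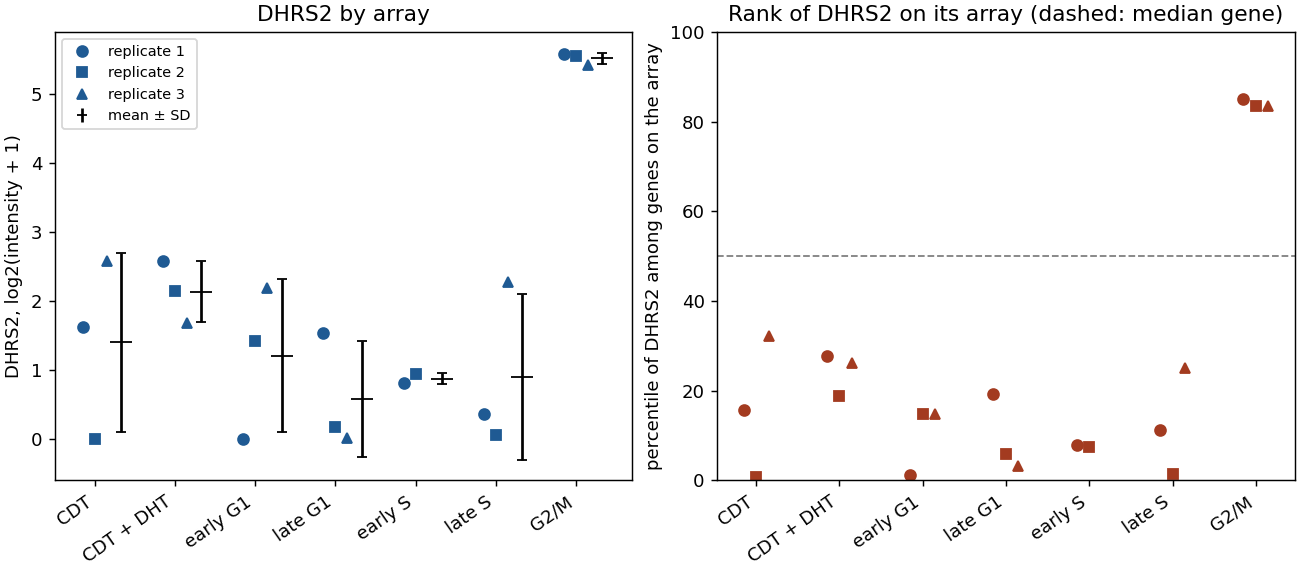
Left, DHRS2 as log2(intensity + 1) on each of the 20 arrays by group, with symbols for the replicate number and bars for mean ± SD; right, the percentile of DHRS2 among all genes of the same array. The 3 G2/M arrays lie at 5.42 to 5.57, and the other 17 at 2.57 or lower.

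In CDT, without DHT, the log2 levels were 1.62, 0.01 and 2.57 (1.40 ± 1.30). With DHT added they were 2.57, 2.14 and 1.69 (2.13 ± 0.44), all inside the span of CDT. The difference with DHT was 0.73 ± 0.73 (SE from the pooled spread of DHRS2 within groups, 0.90). It ranged from 0.04 to 1.32 as single arrays were left out, and was thus no larger than the spread between arrays.

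Among the arrests outside G2/M, early G1 read 0.00, 1.42 and 2.19 (1.20 ± 1.11). Late G1 read 1.54, 0.18 and 0.01 (0.57 ± 0.84), the lowest group mean. Early S read 0.82 and 0.93 (0.88 ± 0.08), and late S read 0.36, 0.06 and 2.27 (0.90 ± 1.20). Early G1 and late S therefore each spanned most of the range of all 17 arrays, while the 2 early S arrays lay close together. The order of the means was G2/M, CDT + DHT, CDT, early G1, late S, early S and late G1, and apart from G2/M each neighbour in that order overlapped the next.

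Set against each group, G2/M was higher by 4.94 ± 0.73 (late G1), 4.64 ± 0.82 (early S), 4.61 ± 0.73 (late S), 4.31 ± 0.73 (early G1), 4.11 ± 0.73 (CDT) and 3.38 ± 0.73 (CDT + DHT) on the log2 scale (SE). The early S group is the nearest in treatment, since both had aphidicolin, for 24 h there and for 15 h before the washout here. With a pseudocount of 16 in place of 1 the 6 differences were 1.64 to 1.86, so their size rests on values near 0, while the separation of the arrays does not. In bulk RNA, more cells with the transcript and more transcript per cell cannot be told apart.

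For scale, the same gap was computed for every gene. In 41 of 18417 genes (0.223%) all 3 G2/M arrays lay above the other 17. DHRS2 had the widest gap of them, 2.84, followed by AURKA, the spindle-pole kinase Aurora A (1.51), TPX2, its activator (0.74), KPNA2, an importin (0.67), and CCNB1, which encodes cyclin B1 (0.66). The size of the DHRS2 gap depends on the pseudocount, since the probe set was dim outside G2/M: with a pseudocount of 16, chosen after the values were seen, it was 1.46, beside 1.22 for AURKA and 0.67 for TPX2, and DHRS2 was still ranked 1. These genes were named after their values were seen, and the ranking uses the contrast for which DHRS2 was chosen.

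**Figure D2:**
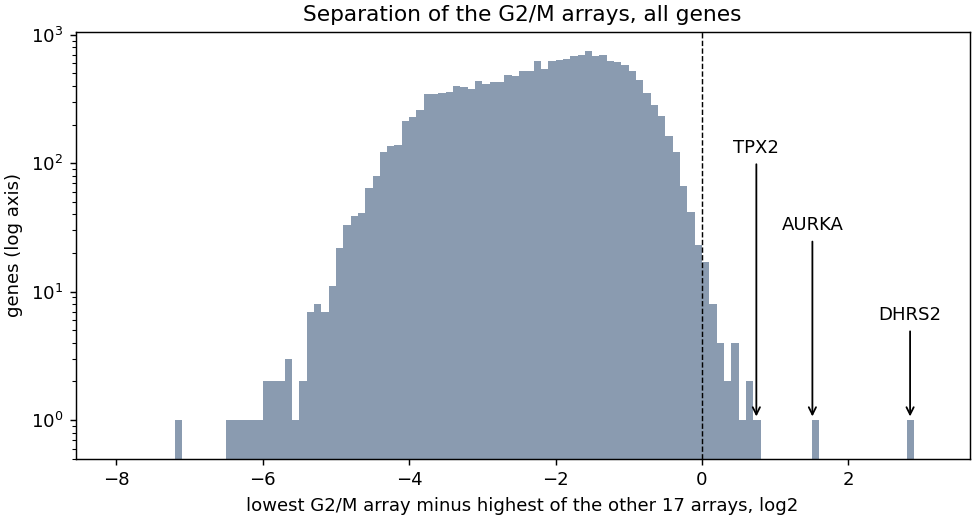
Number of genes (log axis) by the gap between the lowest G2/M array and the highest of the other 17 arrays on the log2 scale; values right of the dashed line mean no overlap. With a pseudocount of 1, DHRS2 lies at 2.84, AURKA at 1.51 and TPX2 at 0.74; with 16 they lie at 1.46, 1.22 and 0.67 (not drawn).

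The genes whose levels followed DHRS2 most closely over the 20 arrays depended on the measure of likeness. Of 6961 genes above the median level with group means at least 1 apart on the log2 scale, the 10 with the highest Pearson correlation ran from 0.695 to 0.595. They were BTG1, an antiproliferative gene (0.695), PLK1, a kinase of mitotic entry (0.67), CCNB1 (0.668), CTCF, an insulator-binding protein (0.657), AURKA (0.645), NCAPD2, a condensin subunit (0.626), UBE2S (0.62), a ubiquitin-conjugating enzyme of the anaphase-promoting complex, HSF4, a heat shock factor (0.612), SHROOM3, an actin-binding protein (0.602), and CDC20, an activator of that complex (0.595). Genes of 1 array share its overall brightness; after centring each array on its median these values were 0.593 to 0.716. Much of the likeness lay in the G2/M arrays: over the other 17 the same 10 genes had correlations of 0.03 (AURKA) to 0.53 (PLK1). By Spearman rank correlation BTG1, PLK1 and HSF4 were again among the 10 highest and the other 7 were not, AURKA at 0.302 and CCNB1 at 0.436. Over the 7 group means CCNB1 and SHROOM3 were again among them.

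PLK1 shows how the patterns part. It was high in G2/M (6.93, 8.30 and 7.17) but almost as high in CDT + DHT (6.94, 6.81 and 6.52), where DHRS2 was at most 2.57. It was at 6.11, 6.24 and 5.35 in CDT and at 2.40, 2.03 and 1.16 in late G1. AURKA, by contrast, lay at 6.92, 6.80 and 7.05 in G2/M and at 1.73 to 5.30 elsewhere.

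At the other end, the 5 genes with the most negative correlation were LINC00173, a long non-coding RNA (-0.712), CEACAM3, an adhesion receptor (-0.682), SHANK2-AS3, an antisense RNA (-0.681), AFTPH, a clathrin adaptor partner (-0.678), and BOP1, a ribosome assembly factor (-0.671). CEACAM3 averaged 1.22 in G2/M and 3.19 to 4.49 in the other groups.

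Of the 10 most similar genes, 9 had a promoter in the RefSeq table. In those, CCAAT was found in 7 (33% of all promoters), a cell-cycle homology region in 5 (14.6%), AACNG in 6 (70.6%) and TATAAA in 2 (11.1%). These genes were picked for their likeness to DHRS2, much of which lay in the G2/M arrays. The shares are over all promoters and not over those of the 6961 genes they were picked from. An excess of any motif was not tested. The DHRS2 window held TATAAA alone, and to lack CCAAT, or to lack a cell-cycle homology region, is the commoner case among promoters. To lack AACNG, which 70.6% of promoters held, is the less common case.

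**Figure D3:**
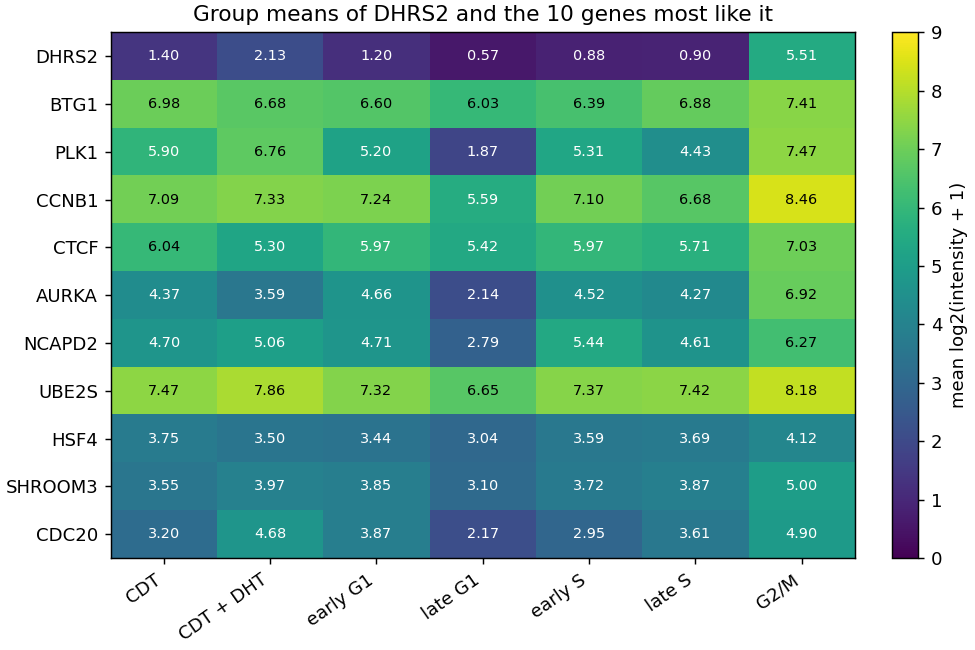
Group means as log2(intensity + 1) of DHRS2 (top row) and the 10 genes most correlated with it over 20 arrays. DHRS2 goes from 2.13 or lower to 5.51 in G2/M, whereas PLK1 is at 6.76 in CDT + DHT and 7.47 in G2/M.

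The genes around DHRS2 in function and position were tested with limma in 12 comparisons, with p-values adjusted by Benjamini-Hochberg over all 18417 genes. Of 73 such genes measured, 0 passed in CDT + DHT against CDT (background 0% of all genes) where 1263 of all genes had an unadjusted p below 0.05. Against CDT, the arrests early G1 (0.00543%), late G1 (0.103%) and early S (0.0326%) had 0 calls, late S had 4 (0.0977%) and G2/M had 1 (0.109%). Against CDT + DHT, early G1 (0%), late G1 (0.516%) and early S (0.00543%) again had 0, while late S (0.0706%) and G2/M (0.44%) had 1 each. In the F test among the 5 arrests 3 passed (0.255%). An unadjusted p below 0.05 was found for 3 to 19 of the 73 genes per comparison and for 942 to 2779 of all genes. All 10 calls were of the list of MDM2 and p53 target genes (17 of 20 measured), and the 7 against a control were rises. The median difference of that list in G2/M was 0.64 against CDT and 1.30 against CDT + DHT, beside -0.05 over all genes in both. The lists were chosen with earlier results of these data known, so their calls and medians are no independent evidence.

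MDM2, the ligase that DHRS2 has been reported to bind, was among the list genes called. Its log2 levels were 7.06, 6.51 and 6.46 in G2/M and 2.21, 2.80 and 3.43 in CDT + DHT. It rose by 3.87 ± 0.83 against CDT + DHT (limma, adjusted p = 0.0472). That call held in 11 of 27 alternative settings (adjusted p 0.00804 to 0.201), and was lost without any one G2/M or CDT + DHT array (0.1 to 0.201). It was also lost without early S replicate 1 or 2, late S replicate 3, early G1 replicate 2 or 3, CDT replicate 2, or any late G1 array (0.0504 to 0.0642). Against CDT, where MDM2 read 2.15, 5.27 and 5.87, the difference was 2.24 ± 0.83 (adjusted p = 0.561).

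MDM2 was not set apart in G2/M as DHRS2 was. Its late S arrays read 5.01, 7.59 and 6.67 and its early S arrays 5.02 and 7.06, overlapping G2/M, while DHRS2 stayed at or below 2.27 there. The late S difference from CDT + DHT was 3.61 ± 0.83 (adjusted p = 0.121). It did pass with trend and robust eBayes (0.0251) or CDT replicate 1 left out (0.0475). The F test among arrests did not pass for MDM2 (adjusted p = 0.783).

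Other p53 targets also had high means outside G2/M. CDKN1A, which encodes the kinase inhibitor p21, averaged 8.85 ± 0.48 (late S), 8.49 ± 0.08 (early S), 7.73 ± 0.35 (G2/M), 6.43 ± 0.31 (CDT + DHT) and 4.98 ± 1.23 (CDT) (mean ± SD). It rose by 3.88 ± 0.59 in late S against CDT (adjusted p = 0.0123). Its difference of 3.51 ± 0.66 in early S against CDT did not pass (limma, adjusted p = 0.1). That early S difference did pass with trend and robust eBayes (0.00141), a pseudocount of 16 (0.00213), median centring (0.0265) or dim genes left out (0.0266). The CDKN1A difference of 2.75 ± 0.59 in G2/M against CDT did not pass (adjusted p = 0.0814). That G2/M difference did pass with a pseudocount of 16 (0.00703), trend and robust eBayes (0.00757), dim genes left out (0.0365) or median centring (0.0387). Against CDT + DHT, which had DHT as the arrests did, the late S difference of CDKN1A was 2.42 and did not pass (adjusted p = 0.148). It passed with a pseudocount of 16 (0.00605) or trend and robust eBayes (0.019). TP53I3, a quinone oxidoreductase gene, rose against CDT in late S by 3.76 ± 0.60 (adjusted p = 0.0198) and in G2/M by 3.34 ± 0.60 (adjusted p = 0.029). Its late S difference from CDT + DHT was 2.51 (adjusted p = 0.141). With a pseudocount of 16 TP53I3 did pass against CDT + DHT, in late S (0.00915) and in G2/M (0.0254). Only the compared groups also gave that G2/M call (0.0446). In early S against CDT, TP53I3 passed with median centring (0.0392) or a pseudocount of 16 (0.0454). The late S calls of CDKN1A and TP53I3 against CDT were lost without late S replicate 3 or CDT replicate 3 (0.123 to 0.172). That of TP53I3 was also lost without CDT replicate 1 (0.144). Fitting late S and CDT alone also lost them (0.455 for CDKN1A and 0.577 for TP53I3). The G2/M call of TP53I3 against CDT was lost without any G2/M array, CDT replicate 1 or 3 or CDT + DHT replicate 1 (0.0513 to 0.233). It was also lost with only the compared groups (0.14).

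DDB2, a DNA repair gene, rose in late S against CDT by 2.53 ± 0.44 (adjusted p = 0.0336), and its difference of 2.07 from CDT + DHT did not pass (adjusted p = 0.0834). GDF15, a stress cytokine gene, rose in late S by 2.53 ± 0.44 against CDT (adjusted p = 0.0336) and by 2.73 ± 0.44 against CDT + DHT (adjusted p = 0.0293). Against CDT, DDB2 was lost without any late S or CDT array, G2/M replicate 2 or 3, or CDT + DHT replicate 1 or 2 (0.0511 to 0.2), and GDF15 without late S replicate 1 or 3, CDT replicate 2 or 3, G2/M replicate 2 or 3, early G1 replicate 3, or CDT + DHT replicate 1 or 2 (0.0511 to 0.2). Against CDT + DHT, GDF15 was lost without late S replicate 1 or 3, G2/M replicate 3 or any CDT + DHT array (0.0555 to 0.182). With only the compared groups the 3 calls were lost as well (0.771 for DDB2, 0.879 and 0.429 for GDF15). In late S against CDT + DHT, DDB2 did pass with a pseudocount of 16 (0.0006), trend and robust eBayes (0.0193) or dim genes left out (0.028). Quantile normalization (0.0452) or median centring (0.0495) had the same effect. In G2/M it passed against CDT and CDT + DHT with a pseudocount of 16 (0.00177 and 0.00793) or dim genes left out (0.0292 and 0.0428). With a pseudocount of 16 DDB2 also passed in early S against CDT (0.0216). GDF15 passed in G2/M against CDT + DHT with trend and robust eBayes (0.00884), a pseudocount of 16 (0.011) or dim genes left out (0.0434). CDKN1A, TP53I3 and DDB2 were those that differed among arrests (F test, adjusted p = 0.0166, 0.027 and 0.0138). GDF15 did so under the same 3 changes of setting (0.000278, 0.00086 and 0.0185). For all 4 targets the mean was higher in late S than in G2/M, a difference not tested by itself. All 4 had been called in late S against CDT, a choice that favours high late S means. MDM2, called in G2/M, averaged 6.68 there and 6.42 in late S. DHRS2, itself chosen on its levels, averaged 0.90 in late S and 5.51 in G2/M. Of the same list, BBC3, a death gene, and PPM1D, a phosphatase that acts on p53, passed in 0 comparisons (lowest adjusted p = 0.076 and 0.146). BBC3 did pass among arrests with a pseudocount of 16 (F test, 0.00189), trend and robust eBayes (0.0134) or dim genes left out (0.0165). Quantile normalization (0.048) or the loss of early G1 replicate 3 (0.0365) had the same effect. With a pseudocount of 16 it also passed in late S against CDT + DHT (limma, 0.00782).

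**Figure D4:**
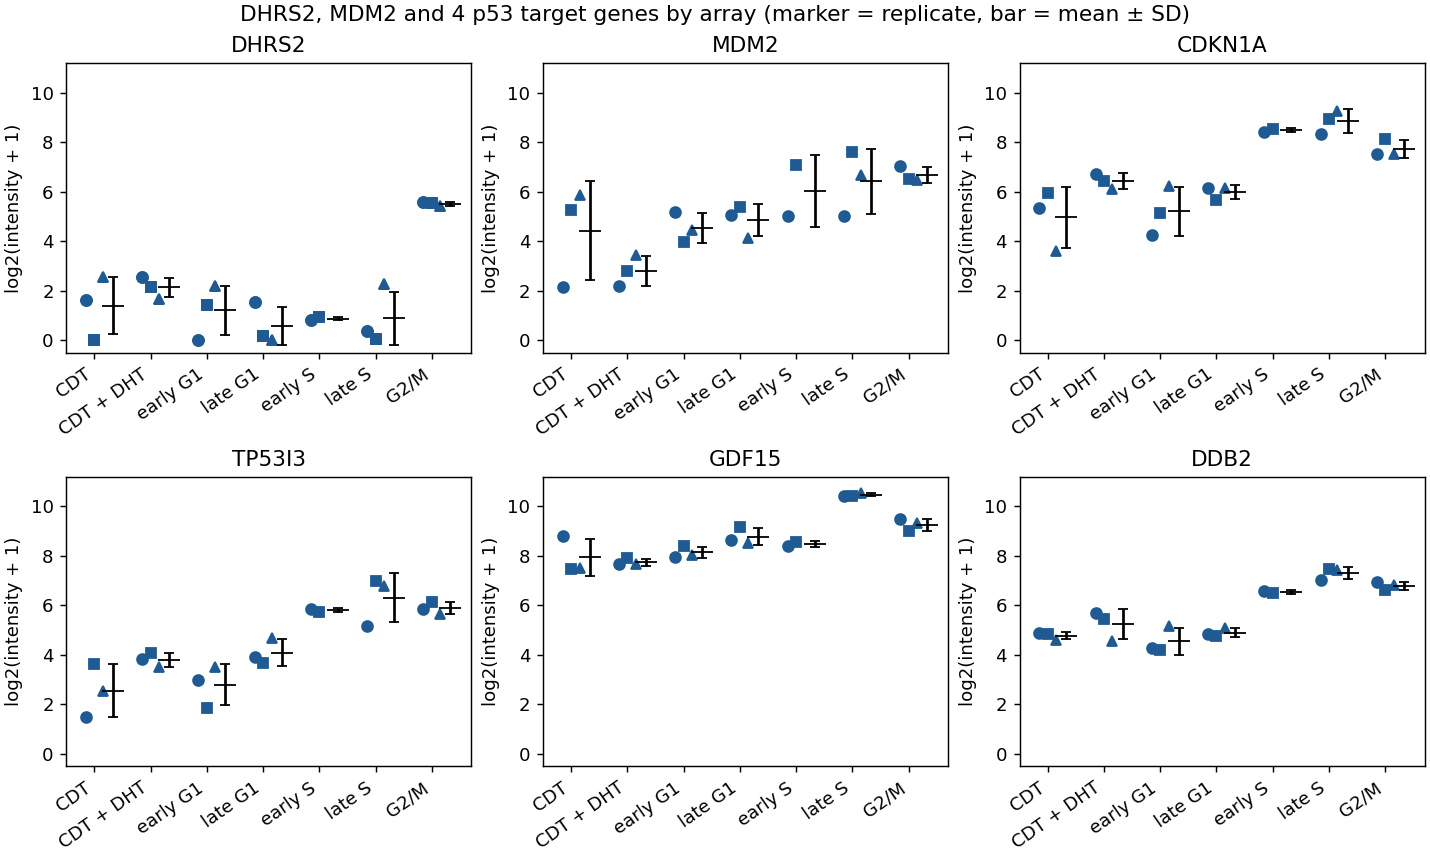
DHRS2, MDM2 and 4 p53 target genes as log2(intensity + 1) on each array by group, with symbols for the replicate and bars for mean ± SD. DHRS2 is high in G2/M alone, whereas CDKN1A, TP53I3, GDF15 and DDB2 have means in late S above those in G2/M. These 4 were called in late S against CDT, and MDM2, called in G2/M, has a higher mean there than in late S.

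In the fit of all 20 arrays no measured relative of DHRS2 passed. Only 0% to 0.516% of all genes passed per comparison, so 0 calls in lists of this size is no result about the family. The list of other short-chain dehydrogenases/reductases had 27 of 32 members measured, and 0 were called in any of the 12 comparisons (limma, 0 to 4 with an unadjusted p below 0.05 in each). Its median difference ran from -0.21 to 0.38 over the 11 contrasts. DHRS4 and DHRS4L2, family members on the same chromosome, were on clusters shared with other genes and were not tested here. DHRS3, a retinal reductase, came nearest to the threshold, in late G1 against CDT + DHT, with a difference of -2.40 ± 0.56 (adjusted p = 0.0576). It did pass there with quantile normalization (adjusted p = 0.0272), median centring (0.0255), a pseudocount of 16 (0.0265), dim genes left out (0.0187) or late S replicate 1 left out (0.0337). In G2/M it read 3.09, 3.17 and 1.59, within its range of 1.20 to 4.47 elsewhere. HSDL2, a peroxisomal member of the family, had a lowest adjusted p of 0.13.

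Aldo-keto reductases, which reduce carbonyls with another protein fold, had 9 of 12 members measured and 0 called (limma, 0 to 4 with an unadjusted p below 0.05 per comparison). Beside this stands the same share of 0% to 0.516% over all genes. AKR1C1 and AKR1C2, steroid-reducing members, were nearest, with differences of -2.34 ± 0.62 in G2/M against CDT + DHT (adjusted p = 0.0904) and -2.81 ± 0.69 in late G1 against CDT + DHT (adjusted p = 0.0716). In those comparisons AKR1C1 passed under 5 alternative settings (adjusted p 0.0397 to 0.0452) and AKR1C2 under 3 (0.0366 to 0.0422).

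Of the described regulators, all 11 histone deacetylase genes were measured and 0 were called (0 to 1 with an unadjusted p below 0.05). With 0% to 0.516% of all genes called per comparison, that is the usual count. HDAC2 (lowest adjusted p = 0.297) and HDAC7 (0.465) lay closest. The arrays measure transcripts, so neither deacetylase activity nor MYB protein was measured. MYB read 4.01, 3.2 and 4.44 in G2/M, inside its range of 2.21 to 4.97 elsewhere, with a difference of -0.66 ± 0.48 against CDT (adjusted p = 0.828) and 1.17 ± 0.48 against CDT + DHT (adjusted p = 0.258). Its relative MYBL2, a factor of the mitotic gene programme, had its lowest adjusted p, 0.0546, in late G1 against CDT + DHT, with a difference of -3.07 ± 0.70, and passed there under 6 alternative settings (0.0203 to 0.0487). In G2/M it read 2.68, 4.85 and 3.22.

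The nearest measured genes on each side of DHRS2 on chromosome 14 did not pass in any comparison (0 of 6 called, 0 to 1 with an unadjusted p below 0.05). The share called over all genes was 0% to 0.516% per comparison. JPH4, which encodes a junctophilin and is the nearest measured gene on one side, read 5.83, 5.02 and 6.09 in G2/M and 4.16 to 6.62 elsewhere. AP1G2, an adaptor subunit gene beyond it, spanned 0.01 to 3.65 in G2/M and 0.45 to 3.75 elsewhere. ZFHX2, a homeobox gene, read 2.06, 2.99 and 2.37 in G2/M, with a difference of -1.68 ± 0.51 against CDT + DHT (adjusted p = 0.137). Elsewhere it ran from 1.65 to 4.27 with a median of 3.86. On the other side, LINC00596 lay at 0.59 to 2.75 in G2/M and 0.00 to 3.38 elsewhere, DHRS4-AS1 at 1.82 to 3.64 and 0.90 to 5.15, and CARMIL3, an actin regulator, at 6.32 to 6.65 and 5.47 to 6.76. In each of the 6 the G2/M arrays overlapped the others, in ZFHX2 through late G1 replicate 3 (1.65) alone. All 3 G2/M arrays lay above the other 17 in only 0.223% of all genes, so not to do so is the usual case. The share with all 3 below the other 17 was not counted. The overlap is no result about the neighbours of DHRS2.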

How the data were processed

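Gene expression was measured on 20 Affymetrix human gene arrays. Deposited values are intensities per probe set. Per the submitters' processing notes, Affymetrix Expression Console 1.1 was used; how probes were summarised or arrays normalized is not stated in the labels. Array medians of 5.44 to 9.08 over 33297 features, with 0 values at or below 0, show a linear scale, and log2(intensity + 1) was used. The annotation table listed 21214 features, 19460 with 1 symbol (19429 matched to RefSeq names by Entrez ID) and 1754 with several, and 12083 were not listed. For 769 genes with several features the brightest was kept, which gave 18417 genes.

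Tests used lmFit and eBayes of limma 3.58.1 (R 4.3.3; 20 arrays, 1 coefficient per group, two-sided, Benjamini-Hochberg, threshold 0.05), tested on simulated data. The number of arrays limits the precision. No 2 arrays were identical. DHRS2 and all gene lists were chosen with earlier results of these data known. Named genes were DHRS2, list members that passed (up to 6 a list) and the 2 nearest to passing, a few fixed genes, the 3 nearest measured genes on each side, and the 10 most and 5 least correlated genes. Alternatives were quantile normalization, median centring, a pseudocount of 16, leaving out dim genes, trend and robust eBayes, only the compared groups, the replicate number as a block, and leaving out each array; leaving out 4 arrays together, and the pseudocount of 16 for the gap, were added after the data were seen.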

Additional observations from a re-analysis of the deposited data

How the results depend on the processing

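The higher DHRS2 level in G2/M kept its direction under quantile normalization, median centring, a pseudocount of 16 and the loss of any single array or of the 4 arrays left out together. With a pseudocount of 16 the difference moved to 1.73 (CDT), 1.64 (CDT + DHT), 1.78 (early G1), 1.86 (late G1), 1.85 (early S) and 1.81 (late S). Leaving out single arrays gave 3.42 to 4.70, 3.15 to 3.60, 3.71 to 4.80, 4.65 to 5.42, 4.58 to 4.69 and 4.19 to 5.30 in that order, and 0.04 to 1.32 for CDT + DHT minus CDT. A second DHRS2 feature could not be tried, since the annotation lists 1, and a filter on dim genes would drop DHRS2, whose mean is below the median.

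Calls of the 73 list genes were less stable. In late S against CDT the 4 calls were 2 with the replicate block and 0 with only the compared groups. In G2/M against CDT the 1 call became 3 with median centring, a pseudocount of 16, dim genes left out, or trend and robust eBayes, and 0 with the replicate block or only the compared groups. In G2/M against CDT + DHT 1 became 2 with quantile normalization, median centring or only the compared groups, 5 with a pseudocount of 16, 4 without dim genes, 3 with trend and robust and 0 with the block. In late S against CDT + DHT 1 became 2 with quantile normalization, median centring or no dim genes, 5 with a pseudocount of 16, 4 with trend and robust, and 0 with the block or only the compared groups. In late G1 against CDT + DHT 0 became 2 with quantile normalization, a pseudocount of 16 or no dim genes, 3 with median centring and 1 with trend and robust; these were DHRS3, MYBL2 and AKR1C2. In early S against CDT 0 became 2 with centring, 3 with a pseudocount of 16, and 1 without dim genes or with trend and robust. Among arrests 3 became 6 with a pseudocount of 16, no dim genes, or trend and robust, and 1 with only the compared groups. Leaving out single arrays gave 0 to 4 calls in late S against CDT, 0 to 1 in late G1 or G2/M (CDT as control) and in G2/M against CDT + DHT, 0 to 2 in late S and late G1 against CDT + DHT, and 1 to 4 among arrests; an early S group of 1 array was assumed to vary like the others. Over the 7 signed calls the adjusted p reached 0.201 to 0.879 at its highest. Over all genes, the replicate block moved the calls in G2/M from 20 to 7 against CDT and from 81 to 2 against CDT + DHT, and trend and robust eBayes moved them to 52 and 349. With the block the adjusted p was 0.0723 for DDB2 and for GDF15 (late S against CDT), 0.0804 for GDF15 (late S against CDT + DHT), 0.0559 for TP53I3 (G2/M against CDT) and 0.0625 for MDM2. Replicate numbers did not pair the arrays: deviations of same-numbered arrays correlated at -0.721 to 0.707 (median -0.031 over 57 pairs).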
